A study of Homo sapiens with 12 samples.

Results

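The enzymes that write and erase cytosine methylation were followed as 9 genes: DNMT1, DNMT3A and DNMT3B, UHRF1 and UHRF2, TET1, TET2 and TET3, and TDG. They were chosen by name, as the rows of the deposited gene table whose Ensembl identifier carries one of those symbols, and all 9 were found among 62754 identifiers. The measurements were RNA-seq counts of PC9, a human line from a lung adenocarcinoma with mutant EGFR, in 12 libraries. The 4 groups had 3 replicate cultures each. Untreated WT cells carried wild-type TDP1 and received no drug. DTC (drug-tolerant cells) were TDP1 WT cells after 7 days in 1 µM erlotinib, an inhibitor of the EGFR kinase. DTEC (drug-tolerant expanded cells) were TDP1 WT cells after 28 days at the same dose. KO was the untreated TDP1 knockout line labelled KO2, so that the knockout and anything else that sets this line apart cannot be told apart. TDP1 encodes tyrosyl-DNA phosphodiesterase 1, which removes trapped TOP1 from DNA. All cells came from a subclonal PC9 line, and the cultures of a condition were split from a common flask and grown separately, so p-values measure the spread between such cultures. No erlotinib-treated KO library was analysed here.

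Methyl groups on CpG cytosines are lost by dilution at each DNA replication unless they are copied to the new strand. UHRF1 recognises hemimethylated DNA and the histone tail and brings DNMT1, the maintenance methyltransferase, to the replication fork. DNMT3A and DNMT3B set methylation de novo. TET1, TET2 and TET3 oxidise 5-methylcytosine, and TDG, a thymine DNA glycosylase, cuts out the oxidised products so that base excision repair can restore cytosine. UHRF2 resembles UHRF1 in its domains and binds hydroxymethylated DNA. RNA levels of these genes were measured, and neither protein nor DNA methylation was.

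The libraries held 25572691 to 38373679 estimated counts. TDP1 itself was at 26.3 ± 1.60 CPM (counts scaled to a common library total; SD, n = 3) in untreated WT and 10.8 ± 0.647 CPM in KO, a log2 fold change of -1.29 (edgeR adjusted p = 1.3e-05). It was also lower in DTC, at 14.0 ± 1.55 CPM (log2 fold change -0.92, edgeR adjusted p = 3.56e-06), and stood at 26.6 ± 1.54 CPM in DTEC. The epithelial markers EPCAM, CDH1, KRT7, KRT8, KRT18 and KRT19 were at 227 CPM or more in every library. Among lung markers, NKX2-1 was at 0.442 CPM or less with 4 libraries at 0, NAPSA at 1.96 CPM or less, and SFTPB between 0.0294 and 17.1 CPM. Of the markers of other cell types, PTPRC, CD3E, COL3A1 and DCN were at 0.147 CPM or less everywhere. COL1A1 was at 54.2 to 56.8 CPM in DTC against 14.8 CPM or less elsewhere, and PECAM1 at 89.6 to 95.0 CPM in DTEC against 50.6 CPM or less elsewhere. The share of counts on mitochondrial genes was 4.43% to 5.41% in DTC and 1.82% to 2.78% in the other libraries. The part of these differences in the results below was not tested.

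Of the 17115 genes that passed the filter on low counts, 67.3% were called between DTC and untreated WT at an edgeR adjusted p under 0.05, 34.0% higher and 33.3% lower. All 9 members passed that filter, and 6 were called, 2 higher and 4 lower. Between DTEC and untreated WT 52.3% of all genes were called, 26.0% higher and 26.3% lower, against 6 members, 1 higher and 5 lower. Between DTEC and DTC 55.4% were called, 28.8% higher and 26.6% lower, against 5 members, 3 higher and 2 lower. Between KO and untreated WT 4.31% were called, 2.76% higher and 1.55% lower, and no member was. The share of members called was thus near that of all genes in the first 3 comparisons. What follows is about which members moved, and how far. The comparisons of DTC and DTEC with untreated WT use the same control libraries. In such bulk samples a smaller share of cells that express a gene and less RNA per cell cannot be told apart.

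**Figure D1:**
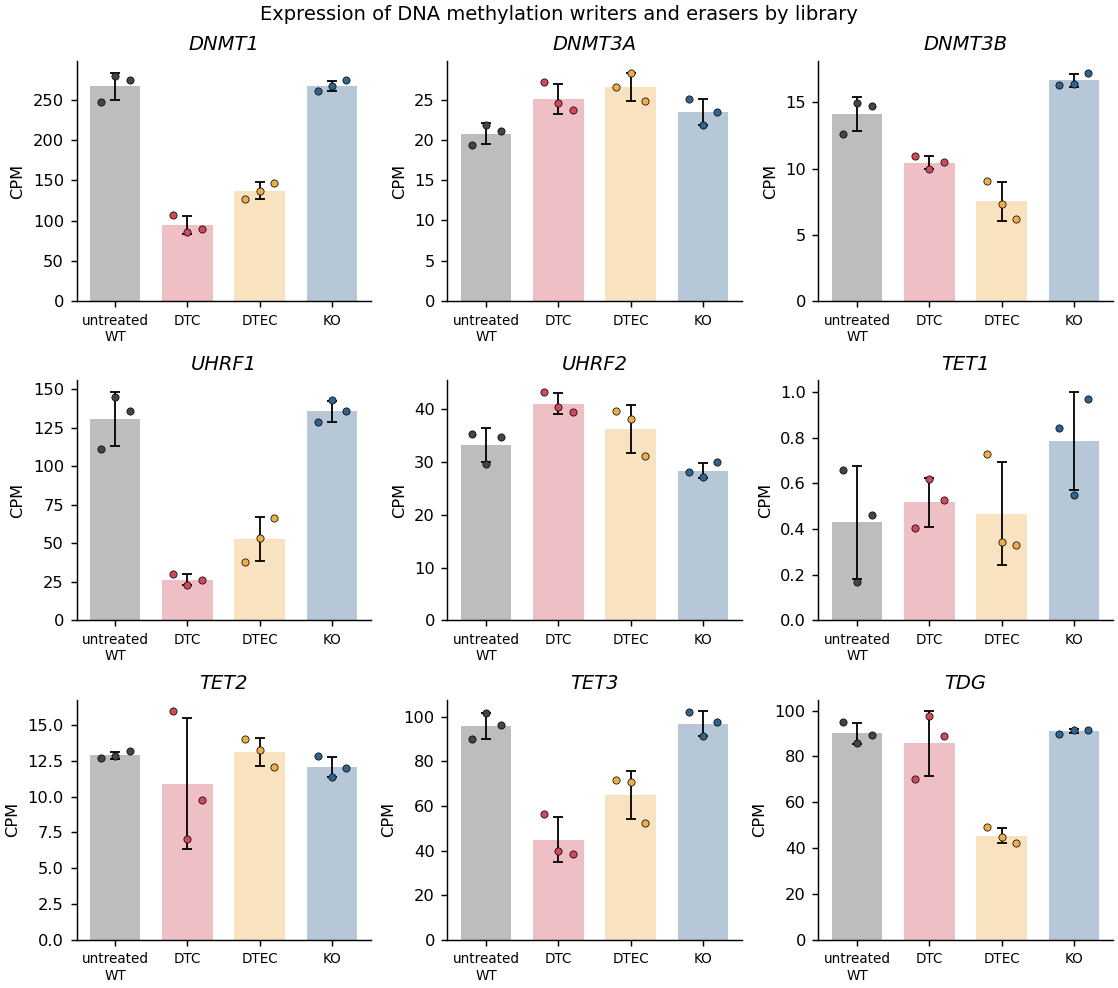
Expression of the 9 genes in CPM (y axes from 0, one scale per gene) by group; bars are means, error bars the SD over 3 libraries and points the libraries. DNMT1, UHRF1 and TET3 were lower in all DTC and DTEC libraries than in untreated WT, while the TDG points of DTEC lie under those of all other groups.

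UHRF1 and DNMT1, the maintenance pair, had the 2 largest falls of the 9 genes in DTC and a partial return in DTEC. Sequence upstream of their start sites is shown because these were the members whose promoter windows held the letters of an E2F site, the element of many S phase genes. RefSeq windows (GRCh38.p14, 250 bases before to 50 bases after each start) were found for all 9 genes, 20 windows in all. They were searched on both strands for TTTCGCGC, TTTGGCGC, TTTCCCGC and TTTGCCGC, none of which contains another motif searched. Such letters occur in 3.31% of all 35116 windows and in 3.99% of 27305 genes. UHRF1 held them in 2 of its 3 windows and DNMT1 in its only one. The capitals mark the match, which lies on the other strand in the first UHRF1 stretch and in DNMT1; the DNMT1 stretch (minus strand, chr19:10194948-10194995) ends 6 bases past the start, and the UHRF1 stretches (plus strand) are chr19:4909447-4909500 and chr19:4909944-4910031.
UHRF1, first start: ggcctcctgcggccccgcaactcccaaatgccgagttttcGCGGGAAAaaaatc
UHRF1, second start: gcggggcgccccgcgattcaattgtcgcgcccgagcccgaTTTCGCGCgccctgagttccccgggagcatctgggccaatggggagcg
DNMT1: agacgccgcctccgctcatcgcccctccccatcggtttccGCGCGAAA
The other 17 windows held no such match, those of TET3 included. The only DNMT3B window (chr20:32779602-32779901) lies inside the gene, whose annotated start is at 32762385. That start was not searched, so the window does not describe it. The DNMT1 and UHRF1 windows also lie inside the annotated spans of these genes. A match is a description of letters and not a binding site. The UHRF1 windows held 36 to 46 CpG dinucleotides and the DNMT1 window 30, against a median of 14 over all windows. Such counts were not particular to this pair. The TET3 windows held 45 and 33, the DNMT3A windows 18 to 46 and the TET2 windows 13 and 35. UHRF2 had 26 and TDG 22, while the DNMT3B window held 3 and those of TET1 6 to 11. Other letter strings searched were common in all windows: the CCAAT box (CCAAT, 34.6% of windows), the GC box (GGGCGG, 45.0%) and the cell-cycle homology region (TTTGAA, 15.2%). CCAAT was found in 2 of the 3 UHRF1 windows and not in the DNMT1 window, and GGGCGG in all 3 UHRF1 windows and not in the DNMT1 window.

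UHRF1 (ENSG00000276043, GRCh38 chr19:4903080-4962154, plus strand) was at 111, 145 and 136 CPM in the 3 untreated WT libraries. It was at 30.2, 23.1 and 26.0 CPM in DTC and at 38.2, 53.6 and 66.5 CPM in DTEC. The 3 groups did not overlap, and relative to their mean the DTEC libraries spread more widely (coefficient of variation 26.9%) than those of untreated WT and DTC (13.5% each). UHRF1 in DTC was 20.2% of its untreated WT mean, a log2 fold change of -2.31 (SE 0.178, edgeR adjusted p = 5.33e-08). In DTEC it was 40.3% of that mean (log2 fold change -1.31, SE 0.171, edgeR adjusted p = 2.30e-05). From DTC to DTEC it rose by a log2 fold change of 1.00 (95% interval 0.63 to 1.37, edgeR adjusted p = 0.000242).

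DNMT1 (ENSG00000130816, chr19:10133345-10231286, minus strand) was at 248, 280 and 275 CPM in untreated WT, 107, 85.7 and 89.5 CPM in DTC and 126, 137 and 147 CPM in DTEC. Every DTEC library lay between the DTC and the untreated WT libraries. DNMT1 fell to 35.2% of its untreated WT mean in DTC (log2 fold change -1.51, SE 0.105, edgeR adjusted p = 1.82e-08) and stood at 51.3% in DTEC (-0.96, edgeR adjusted p = 3.68e-06). The rise from DTC to DTEC was 0.54 on the log2 scale (95% interval 0.32 to 0.77, edgeR adjusted p = 0.0005). Its exons overlap those of S1PR2, a receptor gene on the same strand, and 10 of the 12 DNMT1 values carried decimals, so some reads were shared out between features. S1PR2 had 8.86 ± 1.26 CPM in untreated WT and 18.5 ± 2.71 CPM in DTC (SD, n = 3), a difference far smaller than that of DNMT1 in CPM.

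UHRF1 fell further than its partner. The log2 ratio of DNMT1 to UHRF1 counts within a library was 1.04 ± 0.108 in untreated WT, 1.83 ± 0.0547 in DTC and 1.41 ± 0.293 in DTEC (SD, n = 3). DTC did not overlap with untreated WT (two-sided exact permutation p = 0.1, the smallest that 3 against 3 can give). DTEC did overlap with it (exact p = 0.2). KO stood at 0.98 ± 0.064 (exact p = 0.6). A ratio within a library does not depend on the scaling between libraries.

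UHRF2 (ENSG00000147854, chr9:6413151-6507054, plus strand) went the other way. It was at 35.4, 29.5 and 34.8 CPM in untreated WT and at 43.3, 40.4 and 39.4 CPM in DTC. All 3 DTC libraries were above the untreated WT libraries, with a log2 fold change of 0.30 (SE 0.111, edgeR adjusted p = 0.0252). That call was lost without untreated WT replicate 2 (edgeR adjusted p = 0.083) and when no filter on low counts was applied (0.0723). In DTEC it was at 39.6, 38.0 and 31.1 CPM, which overlapped with untreated WT (log2 fold change 0.12, edgeR adjusted p = 0.367). With total counts as the scale UHRF2 was called higher in DTEC than in untreated WT (0.29, edgeR adjusted p = 0.0372). DTEC against DTC gave -0.18 (edgeR adjusted p = 0.184), and was called lower with total counts (-0.37, edgeR adjusted p = 0.0113) and upper quartile (-0.35, 0.0120). The log2 ratio of UHRF1 to UHRF2 counts was 1.97 ± 0.322 in untreated WT, -0.64 ± 0.149 in DTC and 0.51 ± 0.574 in DTEC. No pair of these 3 groups overlapped (exact p = 0.1 for each pair, the smallest possible).

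**Figure D2:**
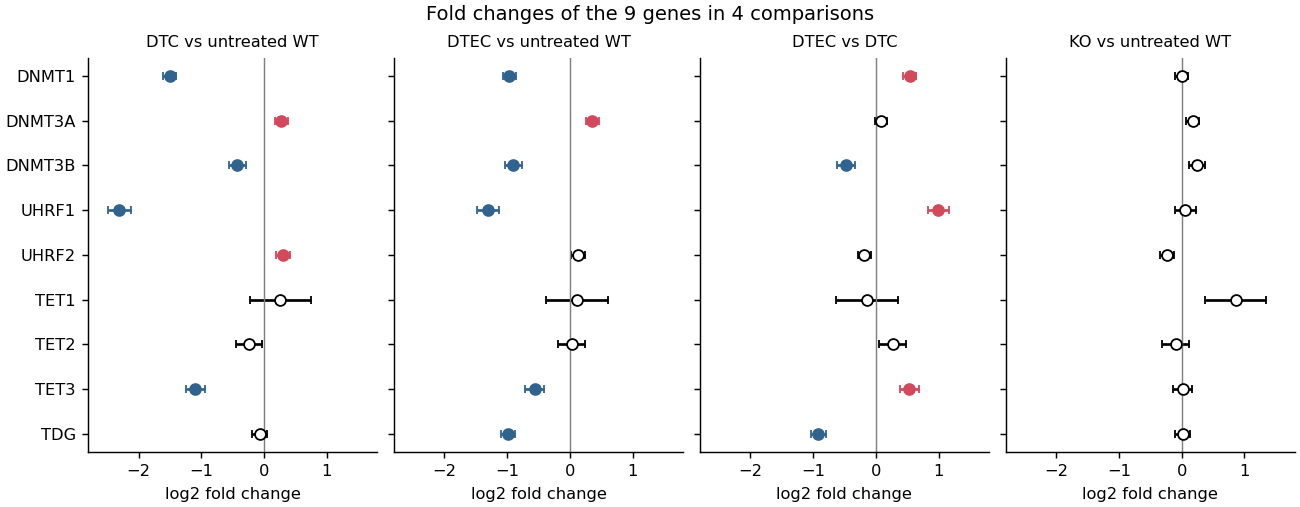
Log2 fold changes (x axis) of the 9 genes in the 4 comparisons, with bars for the SE; blue points were called lower, red points called higher and open points not called. The UHRF1 and DNMT1 points lie farthest to the left in DTC, and no point is filled in the KO panel.

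The de novo methyltransferases moved in opposite directions under erlotinib. DNMT3A (ENSG00000119772, chr2:25227855-25342590, minus strand) was at 19.4, 21.9 and 21.1 CPM in untreated WT, 27.2, 24.5 and 23.7 CPM in DTC and 26.6, 28.4 and 24.9 CPM in DTEC. All treated libraries were above the untreated WT ones, by a log2 fold change of 0.27 in DTC (SE 0.102, edgeR adjusted p = 0.0272) and 0.36 in DTEC (SE 0.102, edgeR adjusted p = 0.00905). The DTC call was lost without untreated WT replicate 1 (edgeR adjusted p = 0.0666), with no filter on low counts (0.132) and when the compared groups were fitted alone (0.0566). DTEC and DTC differed by 0.08 (95% interval -0.14 to 0.30, edgeR adjusted p = 0.515).

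DNMT3B (ENSG00000088305, chr20:32762385-32809356, plus strand) was at 12.6, 14.9 and 14.7 CPM in untreated WT, 10.9, 9.98 and 10.5 CPM in DTC and 9.07, 7.33 and 6.16 CPM in DTEC. The 3 groups were ordered without overlap. Unlike DNMT1, DNMT3B was lower at 28 days than at 7 days, by a log2 fold change of -0.48 (SE 0.137, edgeR adjusted p = 0.00876). Against untreated WT it was lower by -0.43 in DTC (SE 0.133, edgeR adjusted p = 0.0107) and by -0.91 in DTEC (SE 0.136, edgeR adjusted p = 7.32e-05). The DTC call was lost without DTC replicate 2 (edgeR adjusted p = 0.0604) and under both other scalings, upper quartile (-0.14, 0.349) and total counts alone (-0.08, 0.629). The log2 ratio of DNMT3B to DNMT3A counts needs no such scaling. It was -0.56 ± 0.052 in untreated WT, -1.27 ± 0.077 in DTC and -1.84 ± 0.251 in DTEC, with no overlap between any pair of these groups (exact p = 0.1 for each, the smallest possible).

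The mix of the 3 methyltransferase transcripts followed. Per kilobase of exon, DNMT1 made up 85.1% ± 0.215 of the summed level of the 3 genes in untreated WT, 68.7% ± 1.35 in DTC and 78.4% ± 3.02 in DTEC (SD, n = 3). The DNMT3A share was 5.40% ± 0.063, 15.0% ± 0.645 and 12.4% ± 1.06 in the same order. That of DNMT3B was 9.48% ± 0.253, 16.2% ± 0.93 and 9.17% ± 2.16, so that its share rose in DTC while its own level fell. KO had 83.1% ± 0.484 DNMT1, 5.95% ± 0.463 DNMT3A and 10.9% ± 0.106 DNMT3B. These differences from untreated WT were small, but none of the 3 shares overlapped with it (exact permutation p = 0.1 for each, the smallest possible). Measured per kilobase of the longest coding transcript, the DNMT1 share was 90.1%, 77.4% and 84.7% in untreated WT, DTC and DTEC. The groups of DNMT1 shares did not overlap by either length (exact p = 0.1 for each pair). These shares were computed after the levels had been seen.

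**Figure D3:**
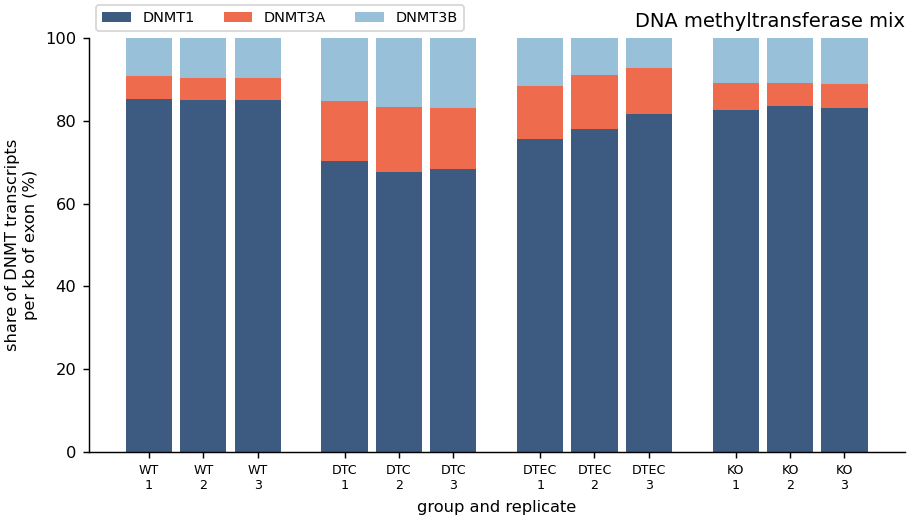
Share (y axis, %) of DNMT1, DNMT3A and DNMT3B in their summed level per kilobase of exon in each of the 12 libraries (x axis, group and replicate). DNMT1 takes 68.7% on average in DTC against 85.1% in untreated WT.

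Among the erasers, TET3 was the main TET transcript. It made up 90.4% ± 0.745 of the summed TET level per kilobase of exon in untreated WT and 90.6% ± 0.17 in KO, and 83.9% ± 2.55 in DTC and 86.1% ± 1.3 in DTEC. TET3 (ENSG00000187605, chr2:73986404-74108176, plus strand) was at 90.0, 101 and 96.1 CPM in untreated WT, 56.4, 39.7 and 38.6 CPM in DTC and 71.6, 70.9 and 52.4 CPM in DTEC. Both treated groups were below untreated WT without overlap, by a log2 fold change of -1.09 in DTC (SE 0.15, edgeR adjusted p = 1.64e-05) and -0.56 in DTEC (SE 0.149, edgeR adjusted p = 0.00571). DTEC was called higher than DTC (0.53, SE 0.15, edgeR adjusted p = 0.00778), although DTC replicate 1 lay above DTEC replicate 3. This last call was lost without DTC replicate 3 (edgeR adjusted p = 0.0573), with total counts as the scale (0.0649) and with these groups fitted alone (0.0546).

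TET2 (ENSG00000168769, chr4:105145875-105279816, plus strand) was at 12.7, 12.9 and 13.2 CPM in untreated WT and at 16.0, 7.03 and 9.73 CPM in DTC. The first DTC library was above all untreated WT libraries and the other two below them, and TET2 was not called (log2 fold change -0.24, SE 0.21, edgeR adjusted p = 0.318). Without DTC replicate 1 it was -0.58 (edgeR adjusted p = 0.00134), and DTEC was then above DTC by 0.62 (edgeR adjusted p = 0.000998). TET2 was at 14.0, 13.2 and 12.1 CPM in DTEC. TET1 (ENSG00000138336, chr10:68560656-68694482, plus strand) was close to its detection limit, with 5 to 35 counts in the 12 libraries. Its highest level was 0.968 CPM, in KO replicate 3, and it was not called in any comparison. In DTC against untreated WT its log2 fold change had a 95% interval of -0.79 to 1.31.

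TDG (ENSG00000139372, chr12:103965804-103988874, plus strand) changed late. It was at 95.0, 85.9 and 89.3 CPM in untreated WT and at 70.3, 97.8 and 89.0 CPM in DTC, which overlapped. In DTEC it was at 49.1, 45.0 and 42.3 CPM, below every library of the other groups. The log2 fold change of DTEC was -0.99 against untreated WT (SE 0.116, edgeR adjusted p = 7.90e-06) and -0.92 against DTC (95% interval -1.16 to -0.67, edgeR adjusted p = 1.42e-05). In DTC it was -0.07 (95% interval -0.32 to 0.17, edgeR adjusted p = 0.592), and the sign turned under other scalings, to 0.22 by upper quartile (0.110) and 0.28 by total counts, where it was called higher (edgeR adjusted p = 0.0374). None of the 12 TDG values was a whole number, so reads were shared with other features. The pseudogene TDGP1 held 5.26 counts or fewer in any library.

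The order of levels per kilobase of the longest coding transcript was led by DNMT1 in untreated WT (49.4 ± 3.15 CPM per kb), followed by UHRF1 (30.3 ± 4.09) and TDG (27.7 ± 1.41), which overlapped. UHRF2 (9.63 ± 0.929) and TET3 (8.42 ± 0.503) overlapped as well. DNMT3B was at 3.25, DNMT3A at 2.19, TET2 at 1.27 and TET1 at 0.0462 CPM per kb. In DTC TDG led (26.4 ± 4.31), ahead of DNMT1 (17.4 ± 2.08), UHRF2 (11.9 ± 0.574) and UHRF1 (6.13 ± 0.825), with no overlap between these neighbours. In DTEC DNMT1 led again (25.3 ± 1.94), and TDG (14.0 ± 1.06), UHRF1 (12.2 ± 3.29) and UHRF2 (10.5 ± 1.3) followed with overlap between each and the next. Parts of this order rest on the length used. Per kilobase of all exons DNMT1 (27.3 CPM) and UHRF1 (25.4 CPM) overlapped in untreated WT, and in DTEC DNMT1 (14.0), UHRF1 (10.3) and TDG (9.27) followed in that order, each overlapping with the next. The place of UHRF2 moved as well: per kilobase of all its exons it was at 3.35 CPM in untreated WT, below TET3 at 7.81, and in DTC at 4.14 CPM, below UHRF1 at 5.14.

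In KO, where TDP1 was lower and no drug was given, none of the 9 genes was called by edgeR or by DESeq2, and none had an unadjusted p under 0.05 in the edgeR fit of all libraries. The lowest adjusted p was 0.326, for UHRF2. When KO and untreated WT were fitted alone, DNMT3A, DNMT3B and UHRF2 had an unadjusted p under 0.05, and none passed after adjustment (lowest adjusted p 0.0631). The 95% interval of the log2 fold change was -0.22 to 0.22 for DNMT1, -0.31 to 0.42 for UHRF1, -0.30 to 0.33 for TET3 and -0.23 to 0.26 for TDG. DNMT3B was at 16.3, 16.4 and 17.3 CPM in KO, above all untreated WT libraries (log2 fold change 0.24, 95% interval -0.04 to 0.53, edgeR adjusted p = 0.384). DNMT3A was at 25.1, 21.91 and 23.5 CPM, also above all untreated WT libraries but by little, the nearest being at 21.89 CPM (0.18, 95% interval -0.04 to 0.40, edgeR adjusted p = 0.414). UHRF2 was at 28.0, 27.1 and 30.0 CPM (-0.23, 95% interval -0.47 to 0.01). TET1 had the largest difference of the 9, 0.787 ± 0.214 CPM in KO against 0.429 ± 0.246 in untreated WT (0.86, 95% interval -0.17 to 1.89, edgeR adjusted p = 0.401), from 5 to 35 counts per library.

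The maintenance genes were set beside 18 S phase and proliferation genes, since methylation is copied at replication forks. Of these 18, 16 fell and 1 rose in DTC (median log2 fold change -1.29, against 0.06 over all genes), and all 18 fell in DTEC (median -0.83, against 0.02). In DTC the change of UHRF1 was below that of every gene of the list, the lowest being MKI67, a proliferation marker (-2.13), and DNMT1 was below 13 of the 18. TET3 was below 6, DNMT3B below 2 and TDG below 1. In DTEC UHRF1 was below 14 of the 18, DNMT1 and TDG below 13 each, and DNMT3B below 11. CCNA2, the cyclin of S phase and G2, went from 324 ± 6.40 CPM in untreated WT to 81.1 ± 8.04 in DTC (log2 fold change -2.00, edgeR adjusted p = 4.59e-10). The gene that rose was CCNE2, a G1/S cyclin, at 24.9 ± 2.85 CPM in DTC against 14.3 ± 1.43 in untreated WT and 8.50 ± 0.657 in DTEC; it was outside the naming rule for DTC and singled out after its value was seen. RRM2, the small subunit of ribonucleotide reductase (-1.66), and GINS2, a part of the replicative helicase (-1.47), had large falls in DTEC. None of the 18 was called in KO by edgeR or by DESeq2.

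From DTC to DTEC 9 of the 18 rose and 3 fell (median log2 fold change 0.24), MKI67 by 1.31 and CCNE2 by -1.55. UHRF1 and DNMT1 rose with the larger number, whereas DNMT3B and TDG fell. Relative to the untreated WT mean, the S phase list had a median of -1.15 to -1.42 in the 3 DTC libraries and -0.79 to -1.05 in DTEC on the log2 scale. Over the same libraries UHRF1 ran from -2.10 to -2.49 in DTC and from -0.97 to -1.76 in DTEC. TDG ran from -0.36 to 0.12 in DTC and from -0.87 to -1.09 in DTEC. What part of the members' changes goes with the share of cycling cells was not tested.

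**Figure D4:**
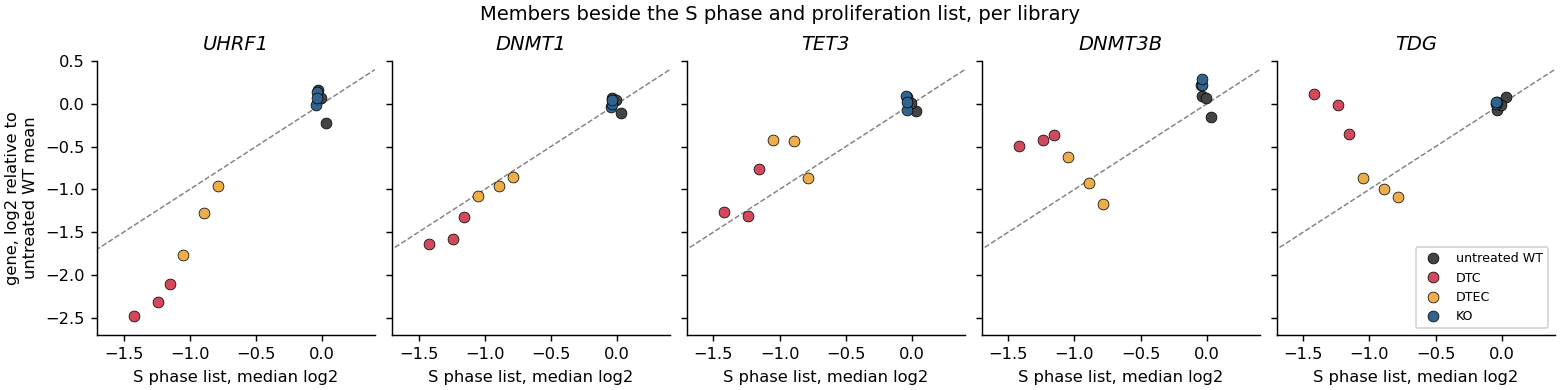
Log2 level of 5 genes (y axes) against the median of the 18 S phase and proliferation genes (x axes), each relative to the untreated WT mean, per library; the dashed line marks equal change. UHRF1 lies under the line in all DTC and DTEC libraries, and TDG lies above it in DTC.

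The other genes of the pathway came from lists of general knowledge, chosen with earlier results of these data known. The counts called in each list stand beside the shares of all genes called. These were 67.3% in DTC and 52.3% in DTEC against untreated WT, 55.4% between DTEC and DTC, and 4.31% in KO. Of 12 tested partners of DNMT1 and UHRF1 in maintenance and targeting (14 listed), 10 fell and 1 rose in DTC, with a median log2 fold change of -1.06. In DTEC 9 fell and 1 rose (median -0.68), and from DTC to DTEC 6 rose and 1 fell (median 0.32). With total counts as the scale the last count became 5 higher and 3 lower (median 0.13). CDCA7L, a paralog of the HELLS activator CDCA7, went from 225 ± 10.9 CPM in untreated WT to 43.2 ± 9.20 in DTC (log2 fold change -2.38, edgeR adjusted p = 1.59e-09) and 146 ± 5.65 in DTEC. PCNA, the replication clamp, is also among the 18 S phase genes, so the lists are not independent. It fell by 0.94 in DTEC. TRIM28, the corepressor that guides methylation to imprints and repeats, fell by 1.03 in DTEC. The gene that rose was ZFP57, the zinc finger protein that recruits TRIM28 to methylated imprinting regions. It was at 0.0312 ± 0.03 CPM in untreated WT, near the level of no reads, 4.25 ± 0.095 CPM in DTC and 0.42 ± 0.0996 CPM in DTEC, so no fold is given. ZFP57 passed the filter on low counts through the groups where it was higher, so its rise is a description. DNMT3L, the catalytically inactive partner of the de novo enzymes, had 5.57 counts or fewer and DPPA3, an inhibitor of UHRF1, had 0 counts in all libraries, and neither was tested. In KO none of the 12 was called by edgeR or by DESeq2.

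The list of methyl-CpG readers and their relatives held 7 genes, MBD3 being listed as a relative, and all were tested. In DTC 2 rose and 3 fell, in DTEC 2 rose and 2 fell, and between DTC and DTEC 3 rose and 1 fell. These counts were near the shares of all genes called, 67.3%, 52.3% and 55.4% in the same order. MBD3, a subunit of the NuRD complex, went from 90.9 ± 19.2 CPM in untreated WT to 44.7 ± 9.43 in DTC and 37.6 ± 10.8 in DTEC. ZBTB38, a zinc finger protein that binds methylated DNA, went from 9.67 ± 0.478 CPM to 33.5 ± 8.69 in DTC (log2 fold change 1.79, edgeR adjusted p = 2.05e-07) and 18.0 ± 1.88 in DTEC. MBD2, another NuRD subunit, was at 52.4 ± 7.27 CPM in DTC and 114 ± 8.52 in DTEC. In KO 1 of the 7 was called, MBD1, at 55.9 ± 2.67 CPM against 71.9 ± 4.32 (log2 fold change -0.36, edgeR adjusted p = 0.0416). This call was lost with total counts, where none of the 7 was called lower and 1 was called higher. Upper quartile called 1 lower and none higher, and DESeq2 called 1 higher and 2 lower.

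The 11 genes listed beside TDG were glycosylases and other genes of excision repair, with GADD45A and GADD45B. In DTC 3 rose and 5 fell, in DTEC 2 rose and 4 fell, and from DTC to DTEC 4 rose and 2 fell. Of all genes 67.3%, 52.3% and 55.4% were called in the same comparisons. The genes with a lower mean in DTC than in untreated WT were the repair genes NEIL2, APEX1, XRCC1, PARP1 and LIG3. NEIL1, among the 11, was near the floor in untreated WT, at 0.138 CPM against 1.03 in DTC and 0.770 in DTEC. It passed the filter on low counts through the groups where it was higher, so its change is a description. GADD45A, a stress gene also proposed to help demethylation, went from 40.5 ± 3.68 CPM without drug to 190 ± 22.7 in DTC and 26.9 ± 5.46 in DTEC. The log2 fold change was 2.23 in DTC (edgeR adjusted p = 7.99e-09) and -2.82 from DTC to DTEC (edgeR adjusted p = 2.95e-09). GADD45B, its relative, went from 3.27 ± 0.321 CPM to 15.3 ± 2.87 and 12.3 ± 0.614 and was still higher in DTEC (1.91, edgeR adjusted p = 2.70e-07). LIG3, the ligase of this pathway, was at 17.0 ± 2.64 CPM in DTC and 33.8 ± 1.84 in DTEC. PARP1, which senses the strand breaks, fell by 0.85 on the log2 scale in DTEC. TDG itself was not called in DTC, when GADD45A was at its highest, and was lower in DTEC. None of the 11 was called in KO by edgeR or by DESeq2.

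Methyl groups for all DNMT enzymes come from S-adenosylmethionine, made by the methionine and folate cycles. Of 12 tested genes of these cycles (14 listed), 9 fell and 1 rose in DTC (median log2 fold change -0.97). In DTEC 6 fell and 2 rose (median -0.24), and from DTC to DTEC 8 rose and 1 fell (median 0.61). MTHFD1, a folate enzyme, went from 411 ± 11.3 CPM in untreated WT to 155 ± 26.6 in DTC and 225 ± 9.40 in DTEC. SHMT2, the mitochondrial serine hydroxymethyltransferase, was at 115 ± 9.26 CPM in DTC and 278 ± 26.3 in DTEC (1.28, edgeR adjusted p = 1.31e-07), and SHMT1, its cytosolic counterpart, rose by 1.15. None of the 12 was called in KO by edgeR, and 1 was by DESeq2.

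TET enzymes need 2-oxoglutarate and are inhibited by succinate and fumarate. Of 17 tested genes of this supply and of TET partners (18 listed), 3 rose and 9 fell in DTC (median log2 fold change -0.52). In DTEC 5 rose and 7 fell (median -0.17), and from DTC to DTEC 9 rose and 2 fell. With total counts as the scale 5 were higher and 6 lower in DTC (median -0.16), and 6 higher and 5 lower in DTEC, so the balance in DTEC turned. FH, fumarase, went from 153 ± 4.96 CPM in untreated WT to 63.5 ± 2.96 in DTC (log2 fold change -1.27, edgeR adjusted p = 2.08e-08). IDH3A, a subunit of the isocitrate dehydrogenase of the Krebs cycle, fell by 1.22 in DTC and by 1.11 in DTEC. IDH1, the cytosolic enzyme that makes 2-oxoglutarate, went from 166 ± 12.3 CPM without drug to 202 ± 18.5 in DTC and 665 ± 38.6 in DTEC (log2 fold change 2.00 in DTEC, edgeR adjusted p = 4.08e-09). SLC23A2, a vitamin C transporter, rose by 0.78 from DTC to DTEC. SLC23A1, also among the 17, had 17 counts or fewer in any library and passed the filter through the groups where it was higher. In KO 2 of the 17 were called higher and 1 lower: CXXC5, a CpG-binding protein, was at 61.5 ± 3.65 CPM against 41.5 ± 3.37 (0.57, edgeR adjusted p = 0.0353), and SDHD, a succinate dehydrogenase subunit, at 120 ± 5.89 against 168 ± 8.78 (-0.49, edgeR adjusted p = 0.0253).

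Germline genes listed for silencing by promoter methylation were also examined. Of 33 germline genes 6 had enough counts to be tested, and the others were at 0.406 CPM or less in every library. MAGEA3, MAGEA4, MAGEA6 and MAGEC1 were not silent in untreated WT, with means of 440, 301, 301 and 59.1 CPM. Their changes are thus not those of silent genes. A gene near the floor, such as MAGEA1, passes through the group where it is high, so the counts below are descriptions. In DTC 4 of the 6 fell and 1 rose, and in DTEC 3 fell and 1 rose. MAGEA4, a cancer-testis antigen, went from 301 ± 12.5 CPM without drug to 181 ± 44.2 in DTC and 339 ± 29.4 in DTEC. MAGEA1, the gene that rose in DTC, had 23 counts or fewer in any library and 0 in all 3 DTEC libraries. SOHLH2, a germ cell transcription factor, was at 0.958 ± 0.295 CPM in untreated WT and 3.11 ± 0.383 in DTEC. MAGEA6 fell by 0.60 in DTEC, with reads that may be shared with its near copy MAGEA3, as none of its 12 values was whole. MAGEC1 was lower in KO, at 34.9 ± 1.21 CPM against 59.1 ± 3.15 (log2 fold change -0.76, edgeR adjusted p = 0.0148). With total counts as the scale, 1 of the 6 fell and 1 rose in DTC.

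Of 14 tested imprinted genes (22 listed), 6 rose and 2 fell in DTC. In DTEC 3 rose and 2 fell, and 5 rose and 5 fell between DTC and DTEC. Of all genes 67.3%, 52.3% and 55.4% were called in the same comparisons. IGF2 and CDKN1C were near the floor, at 0.121 and 0.0533 CPM in untreated WT and 0.718 and 0.319 in DTC. Such a gene passes the filter on low counts through the groups where it is higher, so these counts are descriptions. GRB10, a growth factor receptor adaptor, went from 91.3 ± 4.10 CPM in untreated WT to 36.0 ± 6.43 in DTC and 104 ± 8.83 in DTEC. PLAGL1, a zinc finger protein that restrains growth, took the opposite course, from 8.24 ± 0.975 to 17.3 ± 2.18 and 6.43 ± 1.36 CPM. PHLDA2 was at 11.9 ± 3.60 CPM in untreated WT and 2.63 ± 1.08 in DTEC (log2 fold change -2.17, edgeR adjusted p = 0.000631). None of the 14 was called in KO by edgeR, and 1 was by DESeq2.

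The genes whose profile over the 12 libraries was most like that of a member were found among 9714 genes with at least 10 CPM, by the root mean square (RMS) difference of centred log2 CPM. For DNMT1 they were MYBBP1A (RMS difference 0.0538), ELAC2 (0.0672) and BAG3 (0.0687), against an RMS of 0.656 for the profile of DNMT1 itself. The mean of MYBBP1A was 302 CPM in untreated WT and 307 in KO, against 106 in DTC and 153 in DTEC. For UHRF1 they were IPO4 (0.140), CCNF (0.143) and KIF20A (0.149). For TDG they were PRPS1 (0.107), HCCS (0.110) and SLC66A1 (0.115), and for TET3 the nearest was PRKAR2A (0.077). For DNMT3B it was ING1 (0.154), for DNMT3A VPS26C (0.0679), for UHRF2 ZNF559 (0.0667) and for TET2 EDEM3 (0.101). The profiles of these members themselves had an RMS of 0.458, 0.154, 0.219 and 0.282 in the same order. Relative to their own variation, their nearest genes were thus less close than those of DNMT1. The RMS was 1.01 for UHRF1, 0.434 for TDG and 0.496 for TET3. TET1 had no close profile, its nearest gene, SULT1A3, being 0.441 away where the profile of TET1 itself had an RMS of 0.529. Among the members, the one nearest to DNMT1 was TET3 (0.254), followed by UHRF1 (0.364), and the one nearest to DNMT3B was TDG (0.266).

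The scaling between libraries moved all fold changes together. With total counts alone the median log2 fold change of all genes shifted by 0.35 in DTC and 0.17 in DTEC against untreated WT and by -0.19 in DTEC against DTC. The calls in DTC were then 8008 higher and 3702 lower, against 5818 and 5702 with the scaling used here (TMM, trimmed mean of M values). In DTEC they were 5748 and 3269 against 4449 and 4506, between DTEC and DTC 3555 and 5951 against 4923 and 4557, and in KO 676 and 182 against 473 and 265. Upper-quartile scaling gave 7566 higher and 4080 lower in DTC and 3683 and 5840 between DTEC and DTC. Among the lists, total counts left 14 of the 18 S phase genes lower and 1 higher in DTC, and the rise of their median from DTC to DTEC became 0.05, with 8 higher and 5 lower. The list set beside TDG became 6 higher and 5 lower in DTC, and the list of readers and their relatives 4 higher and 1 lower in DTEC. DNMT1, UHRF1 and TET3 were called lower and DNMT3A higher in DTC and DTEC under TMM, upper quartile, total counts and DESeq2 alike. With total counts the log2 fold change in DTC against untreated WT was -1.95 for UHRF1 and -1.15 for DNMT1.

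**Figure D5:**
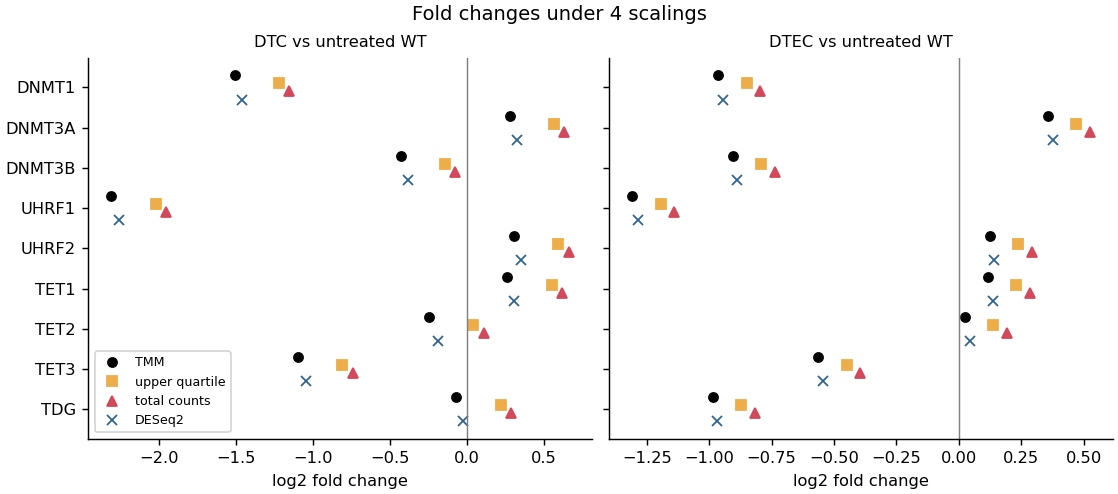
Log2 fold changes (x axis) of the 9 genes in DTC and DTEC against untreated WT under 4 scalings. The points of a gene shift together by scaling, and those of TDG and TET2 in DTC lie on both sides of 0.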

How the data were processed

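PolyA RNA of 12 PC9 cultures was sequenced (TruSeq Stranded mRNA, paired reads), per the labels' protocols. The deposited values were expected counts per gene, which the authors made with tools that the submitters' processing notes list as RSEM 1.3.1, Bowtie2 2.5.2 and DESeq2 1.40.2 with GRCh38; the annotation release is not given in the sources used here. Here counts were rounded and fitted in edgeR 4.0.16 (R 4.3.3; filterByExpr, TMM, robust quasi-likelihood F tests, 1 mean per group over 12 libraries, Benjamini-Hochberg over 17115 genes, called at an adjusted p under 0.05). The fit was also run on simulated counts in which few genes changed, so that run does not test the scaling used here. Alternatives were other scalings, no count filter, DESeq2 1.42.0, the compared groups alone, a replicate block and each library left out. Coordinates and lengths come from GENCODE 29. Totals of 25572691 to 38373679 set a floor of 3 counts at 0.0782 to 0.117 CPM before TMM scaling. This floor covers counting error only. The members and lists were chosen with earlier results of these data known. All 9 members are named, with the 2 genes of each list that changed most among those called at 1 CPM or more, per comparison, and the 3 genes most like a member. A gene that this rule names is not reported here.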

Additional observations from a re-analysis of the deposited data

Results flagged for a closer look

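DNMT1, DNMT3B, UHRF1, TET3 and TDG differed between the 2 lengths of erlotinib treatment by a direct test of DTEC against DTC. The log2 fold change from 7 to 28 days was 0.54 for DNMT1, 1.00 for UHRF1 and 0.53 for TET3, which were higher at 28 days, and -0.48 for DNMT3B and -0.92 for TDG, which were lower. At 28 days DNMT1, UHRF1 and TET3 were nearer to untreated WT than at 7 days, whereas DNMT3B and TDG were farther from it. Between these groups 55.4% of all genes were called.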

How the results depend on the processing

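Over the alternatives, 4 to 7 members were called in DTC (6 in the fit described), 6 or 7 in DTEC (6), 4 to 6 between DTEC and DTC (5) and 0 in KO (0). With a replicate block 6, 6, 5 and 0 members were called. Replicate numbers were not taken to pair cultures, since the correlation of same-numbered libraries was low, between -0.013 and 0.179. Between KO and untreated WT, though, each same-numbered correlation (0.0629, 0.0527 and 0.0378) was above the highest other-numbered one (-0.0331, -0.0019 and -0.015). Replicate 1 did likewise in every comparison, and replicates 2 and 3 in some. A shared effect of replicate number is thus not excluded. Of 54 member values per comparison under other settings, 45 kept direction and call in DTC, 53 in DTEC, 48 between DTEC and DTC and 54 in KO. Signs turned under total counts and upper quartile, respectively, for TET2 in DTC (0.110 and 0.0374), TDG in DTC (0.284 and 0.220) and DNMT3A between DTEC and DTC (-0.105 and -0.0913). By leaving out libraries, the log2 fold change of TET1 ranged in DTC from -0.0865 to 0.719, in DTEC from -0.338 to 0.563, and between them from -0.627 to 0.0298. That of TET2 ranged, in the same order, from -0.582 to 0.0536, -0.00834 to 0.0731 and -0.0101 to 0.625, and that of TDG in DTC from -0.117 to 0.0867. In KO the ranges were -0.0335 to 0.0577 for DNMT1, -0.0337 to 0.158 for UHRF1 and -0.0117 to 0.0808 for TET3. The cause was not tested. KO calls over all genes numbered 738, and 2656 with the groups fitted alone, 1149 by DESeq2 and 1147 with no filter. TET1 had 35 counts or fewer in every library, which limits what could be detected for it.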
